A study of Mus musculus with 3 samples.

Results

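The genes P2ry13, P2ry6, P2rx4, P2rx7, Entpd1 and Adora3 encode receptors for extracellular nucleotides or adenosine and the main surface enzyme that connects them, and their transcripts were followed in microglia of mice with human CD33 transgenes. They were chosen by name, as 6 of the 15635 genes with counts in the study's 3 single-cell libraries, and all 6 had counts in every library. Levels, cell type and library differences are described for cells with more than 200 and at most 8000 genes and at most 10% mitochondrial UMIs. A UMI is a molecular tag that marks 1 captured transcript.

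ATP and other nucleotides leave cells when these are active, stressed or damaged, and microglia, the resident macrophages of the brain, sense them through P2Y receptors, which couple to G proteins, and P2X receptors, which are ATP-gated cation channels. CD39, the product of Entpd1, is an ectoenzyme that removes phosphates from ATP and ADP to leave AMP. A second ectoenzyme, CD73, turns AMP into adenosine, which acts on its own family of G protein-coupled receptors, among them the A3 receptor of Adora3.

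Each of the 3 genotypes gave 1 library of brain microglia from mice aged 8 weeks on a C57BL/6J background, namely a control labelled wild type, hCD33M and hCD33m. The 2 transgenic lines carry the long (M) or the short (m) isoform of human CD33, a sialic acid-binding receptor, behind a stop cassette in the Rosa26 locus that Cre driven by Cx3cr1 removes, and whether the control mice carried Cre is not given for these libraries in the sources used here. Cx3cr1-Cre acts in microglia but also in other macrophages and monocytes, and the hCD33m line came from 1 embryonic stem cell clone. The paper describes a library as made from a pool of mice, after flow sorting for CD11b+CD45lowCx3cr1+ cells and handling in the cold with Actinomycin D, Triptolide and Anisomycin, which block transcription or translation. A genotype is thus 1 sample, so there is no replicate check, no test across samples was made, and a difference between libraries cannot be told apart from a difference between pools of mice, isolations or runs. Human CD33 transcripts were not measured here, since the counts are for mouse genes.

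The libraries held 5920 to 6257 barcodes, 5710 to 6068 of them within the limits, and shared 4 to 12 barcodes in pairs. The limits stated in the study's methods leave more cells here than the study kept, so the cell sets differ. Clustering without the purinergic genes among the variable genes gave 13674 microglia-like cells in 6 clusters, with 4429, 4334 and 4911 cells and 28192539, 29644136 and 34379288 UMIs for control, hCD33M and hCD33m. A further 205 cells were border associated macrophage-like and 3706 stayed unnamed. A cluster of 84 cells, cluster 11, was led by the neutrophil genes S100a9, S100a8, Camp and Ngp ahead of the monocyte genes Plac8, S100a6 and S100a4, and is given by its number. All 10 microglia markers passed 20 UMIs per 1000000 UMIs (CPM) in the microglia-like cells of each library, and their summed level was 32641 CPM in control, 32507 in hCD33M and 30513 in hCD33m. The markers of monocytes and neutrophils summed to at most 12.1 and 2.41 CPM there. Those of border associated macrophages summed to 223 to 287 CPM and those of lymphocytes to 250 to 315 CPM. In each of these lists only 1 marker passed 20 CPM. Oligodendrocyte markers summed to 62.4 to 66.3 CPM, with 2 over 20 CPM. Fos, an immediate early gene, had a level of 57.3 CPM in control, 252 in hCD33M and 532 in hCD33m, so that libraries stood apart in early gene level. The hCD33m library is labelled female and the others male, but Ddx3y of the Y chromosome had 3651 UMIs in it against 2975 in control and 3439 in hCD33M, and Xist had 0 against 3 and 0.

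P2ry13 had the highest level of the 6 genes in every library, and the order P2ry13, Entpd1, P2ry6, Adora3 and then the P2X genes held in all 3. Levels are UMI sums over the microglia-like cells of a library as CPM, with exact 95% Poisson intervals that cover counting error only. As 3′ tags give 1 UMI per captured transcript end, the levels are not divided by gene length, but capture can still differ between genes. P2ry13, a receptor for ADP that couples to Gi and lies beside P2ry12 on chromosome 3, was at 830 CPM (820 to 841) in control, 799 (789 to 810) in hCD33M and 708 (699 to 717) in hCD33m. In pooled cells it ranked 156 among all genes, above 99.0% of those with a UMI. P2ry6, which binds UDP and is known for its part in microglial phagocytosis, was at 438 CPM (431 to 446), 469 (461 to 476) and 402 (395 to 409), which made it the third of the 6 genes, at rank 323.

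Entpd1 was at 553 CPM (544 to 561) in control, 629 (620 to 638) in hCD33M and 492 (484 to 499) in hCD33m, and P2ry13 exceeded it 1.27-fold in hCD33M, 1.44-fold in hCD33m and 1.5-fold in control. It was the next highest of the 6 genes, ranked 244 among all genes. Adora3 was at 141 CPM (136 to 145), 164 (159 to 169) and 139 (135 to 143). Its order above the P2X genes was narrow in control, where it exceeded P2rx7 1.13-fold (1.08 to 1.18), and wider in hCD33M at 1.32-fold (1.27 to 1.38). Exons of Adora3 overlap those of Tmigd3 on the same strand, a gene with 89 UMIs in these cells, so reads there cannot be assigned for certain.

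P2rx7 and P2rx4, the genes of a low-affinity ATP channel linked to inflammasome activation and of a higher-affinity ATP channel found on microglial lysosomes, could not be ordered. P2rx7 was at 124.8 CPM (121 to 129) in control, 124 (120 to 128) in hCD33M and 121 (117 to 124) in hCD33m. P2rx4 was at 122 CPM (118 to 126), 123 (119 to 127) and 121 (118 to 125.2). The ratio of P2rx7 to P2rx4 was 1.02 (0.977 to 1.07) in control, 1.01 (0.964 to 1.06) in hCD33M and 0.994 (0.952 to 1.04) in hCD33m, so each interval held 1. The genes are neighbours on chromosome 5, with P2rx7 at 122643911 to 122691432 and P2rx4 at 122707544 to 122729738 on the plus strand (GENCODE M21, GRCm38). Entpd1 lies at 40612366 to 40741602 on the plus strand of chromosome 19, P2ry6 at 100937630 to 100974649 on the minus strand of chromosome 7, Adora3 at 105870858 to 105908926 on the plus strand of chromosome 3, and P2ry13 at 59207892 to 59210882 on its minus strand, inside Med12l, which runs the other way and shares no exon with it.

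**Figure D1:**
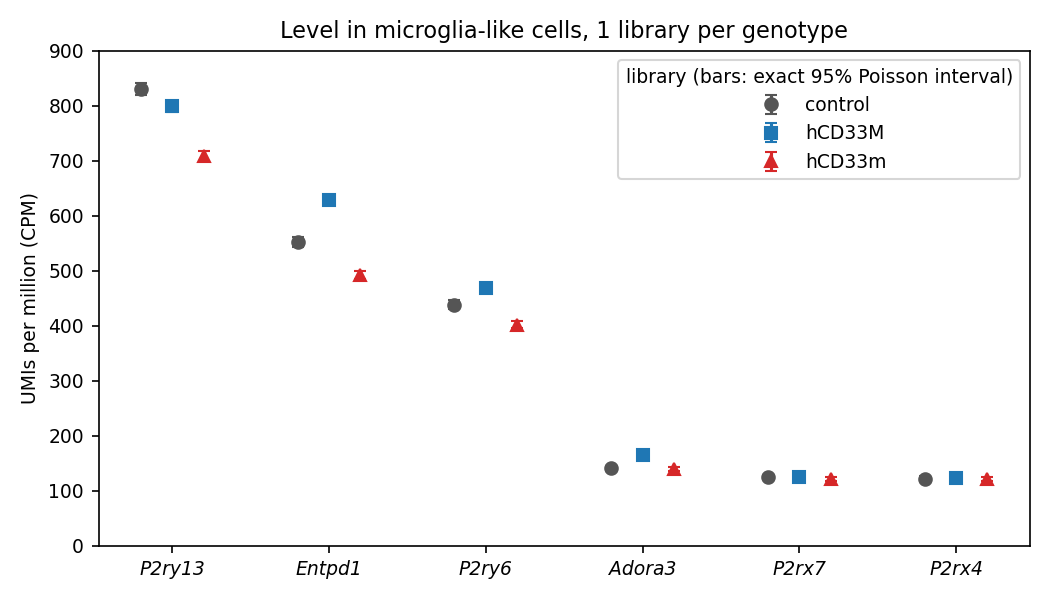
Level of each gene in microglia-like cells (CPM, linear axis from 0) in the control (circle), hCD33M (square) and hCD33m (triangle) library, with exact 95% Poisson intervals. P2ry13 lies highest in each library (708 to 830 CPM), P2rx7 and P2rx4 coincide near 121 to 124.8 CPM, and Entpd1 spreads from 492 in hCD33m to 629 in hCD33M.

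The levels were read in many cells and not in a few. After each cell was thinned to 1600 UMIs, which left out 324, 382 and 224 shallower cells of control, hCD33M and hCD33m, P2ry13 was found in 71.8% (exact 95% binomial interval 70.4 to 73.2), 70.8% (69.4 to 72.2) and 65.9% (64.5 to 67.3) of microglia-like cells. The unthinned shares were 94.1%, 93.7% and 93.0%. Thinned shares of Entpd1 were 57.6%, 62.3% and 52.7%, and those of P2ry6 were 49.8%, 51.0% and 45.2%. For Adora3 they were 20.8%, 24.0% and 20.01%. The hCD33m library thus had the lowest share for each of these genes, as for their CPM, but for Adora3 the counting intervals of hCD33m and control overlapped. Thinned to 3000 UMIs, the share of Adora3 was 33.9% in hCD33m against 32.9% in control. P2rx7 was found in 18.7%, 18.3% and 17.3% of thinned cells, and P2rx4 in 18.4%, 17.7% and 17.1%. The same thinning in cluster 11, of all libraries pooled, found P2ry13 in 6.02%, Adora3 in 1.205%, P2rx7 in 3.61%, P2rx4 in 12.05%, P2ry6 in 13.3% and Entpd1 in 15.7% of 83 cells, whose median depth before thinning was 9185 UMIs against 5032.5 in microglia-like cells. At this depth 43.7% of the cells of control, 47.4% of those of hCD33M and 37.7% of those of hCD33m held UMIs of at least 3 of the 6 genes, and 3.51%, 2.73% and 5.25% held none.

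The libraries were compared to see whether a CD33 isoform goes with another level of these genes, and none of the 6 reached 1.5-fold. A call needed a ratio of 1.5-fold or more, an interval that leaves out no difference, and 20 CPM or more in either library. In hCD33m against control 0 of 6 genes were called, where 1.24% of all measured genes were. In hCD33M against control 0 of 6 were called against a background of 0.885%, and in hCD33m against hCD33M 0 of 6 against 0.606%. The largest differences were small and lay in Entpd1, P2ry13, P2ry6 and Adora3, whereas those of P2rx4 and P2rx7 had intervals that held no difference in all 3 comparisons.

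Entpd1 had the largest difference, between the transgenic libraries. Its level of 492 CPM in hCD33m was 0.782 times that of 629 CPM in hCD33M, a log2 ratio of -0.35 (95% conditional binomial interval -0.38 to -0.32). It was the only gene of the 6 that passed a lower limit of 0.32 on the log2 scale in any comparison, as 3.31% of all measured genes did there. Against control, Entpd1 was -0.17 (-0.20 to -0.14) in hCD33m and 0.19 (0.16 to 0.22) in hCD33M on the log2 scale, values that share the control library.

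P2ry13 was lower in hCD33m than in control by a log2 ratio of -0.23 (-0.26 to -0.20) and than in hCD33M by -0.17 (-0.20 to -0.15), with -0.05 (-0.08 to -0.03) in hCD33M against control. P2ry6 gave -0.12 (-0.16 to -0.09) in hCD33m and 0.10 (0.06 to 0.13) in hCD33M against control, and -0.22 (-0.26 to -0.19) between the transgenic libraries. Adora3 gave 0.22 (0.16 to 0.28) in hCD33M and -0.02 (-0.08 to 0.04) in hCD33m against control, and -0.24 (-0.30 to -0.18) between the transgenic libraries. P2ry13 was thus lowest in hCD33m, while Adora3 was highest in hCD33M. The medians of the 6 log2 ratios were -0.09 for hCD33m and 0.05 for hCD33M, each set against control, and -0.20 between the transgenic libraries, beside 0.01 in each case over all measured genes.

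**Figure D2:**
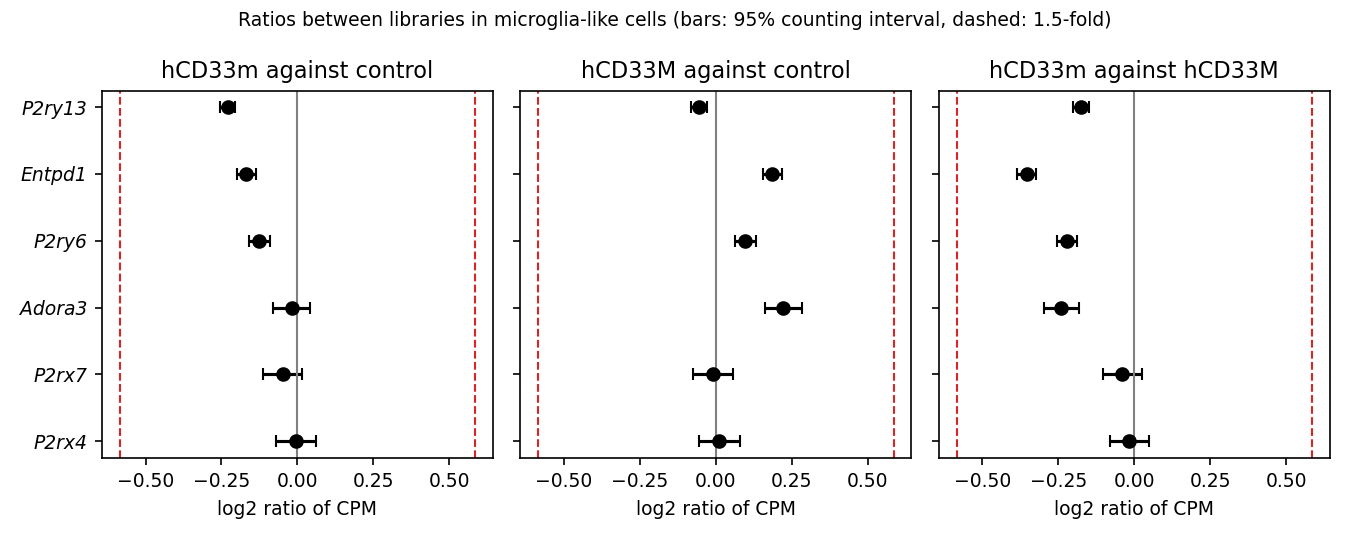
Log2 ratio of CPM in microglia-like cells for each gene in the 3 library comparisons, with 95% counting intervals and dashed lines at 1.5-fold. No point reaches a dashed line, and Entpd1 lies farthest from 0, at -0.35 in hCD33m against hCD33M.

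The differences of Entpd1, P2ry13 and P2ry6, and that of Adora3 between the transgenic libraries, were also present within clusters. Entpd1 was lower in hCD33m than in hCD33M in 6 of 6 microglia-like clusters (log2 ratios of -0.43 to -0.25) and lower than in control in 6 of 6 (-0.26 to -0.12). P2ry13 was lower in hCD33m than in control in 6 of 6 clusters (-0.24 to -0.17), and P2ry6 in 6 of 6 (-0.19 to -0.04). P2rx4 and P2rx7 were lower in 3 and 4 of the 6, and Adora3 in 3. Adora3 was lower in hCD33m than in hCD33M in 6 of 6 clusters (-0.33 to -0.05). It was higher in hCD33M than in control in 5 of 6 (-0.14 to 0.27 over all 6). The clusters of a library come from the same mice and are not replicates. In cells that had no UMI of Fos, Fosb, Egr1 and Klf2 after thinning (3005 control, 1567 hCD33M and 1005 hCD33m cells), the log2 ratio of hCD33m to control was -0.32 for P2ry13, -0.24 for Entpd1 and -0.09 for P2ry6, beside -0.23, -0.17 and -0.12 in all microglia-like cells. The first set of ratios is from thinned counts without the shallowest cells, and the second is from all UMIs. The sets thus differ in more than the early genes. The summed microglia markers were also lower in hCD33m, as given above, and the part of the markers and of the early genes in these differences was not tested.

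With cluster 3 counted, all 6 genes varied more between clusters of microglia-like cells than between libraries, but without it this did not hold for Adora3 and P2ry6. The highest level of each lay in cluster 3, which had the lowest depth, with a median of 1768.5 UMIs per cell, and was led by Malat1 and mitochondrial genes such as mt-Cytb. There P2ry13 reached 1352 CPM, which was 2.34-fold its lowest cluster level of 579 CPM, and Entpd1 reached 958 CPM, 2.22-fold its lowest. P2rx4 ranged 2.01-fold, P2rx7 1.93-fold, Adora3 1.77-fold and P2ry6 1.67-fold. In the other microglia-like clusters Adora3 ran from 134 to 145 CPM and P2ry6 from 396 to 443 CPM. Between libraries they ran from 139 to 164 CPM and from 402 to 469 CPM. Entpd1 ran from 432 to 554 CPM in those clusters, beside 492 to 629 CPM between libraries. P2ry13 and Entpd1 were lowest in cluster 6, which was led by Emp3, Tcim, Ifi27l2a and Lpl, and P2ry6 and Adora3 were lowest in cluster 8, led by the interferon-induced genes Ifit3, Cxcl10 and Ifit2. Cluster 3 held 801 control, 879 hCD33M and 412 hCD33m cells, and whether depth or RNA quality sets its levels was not tested.

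**Figure D3:**
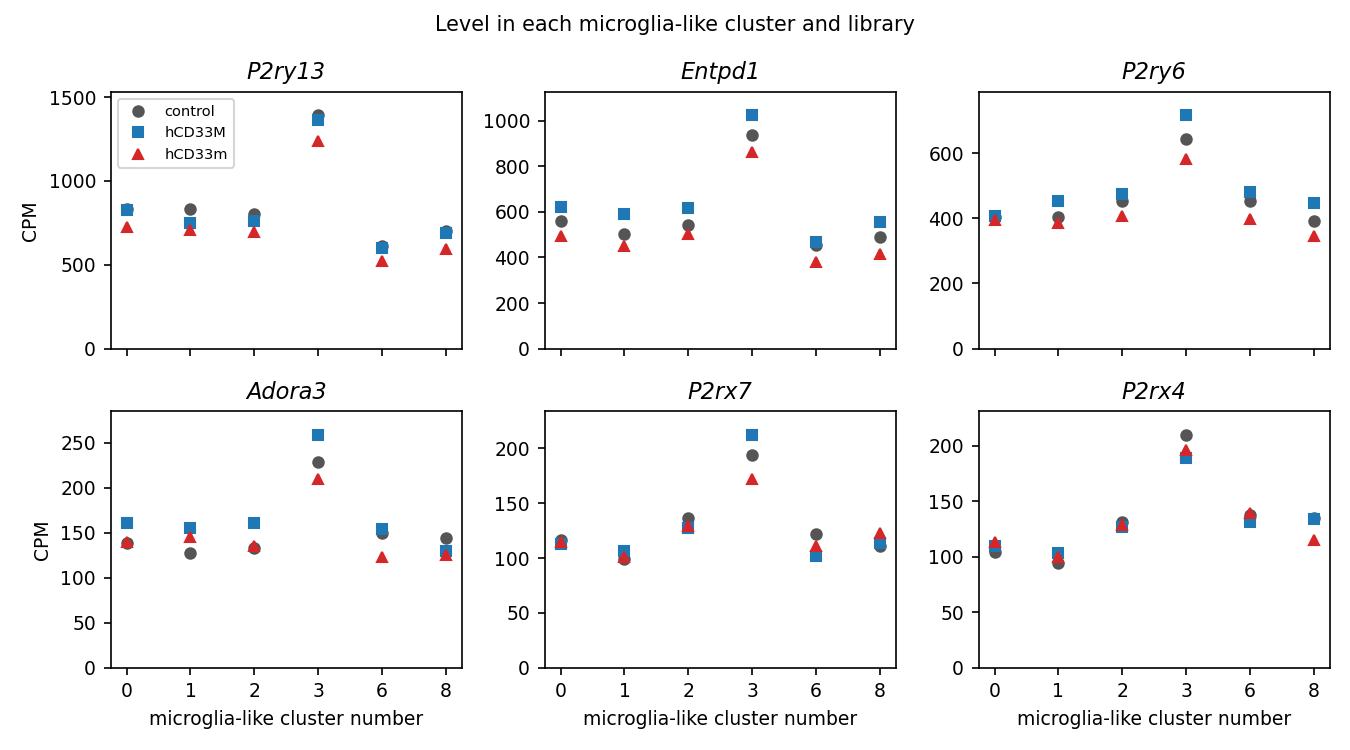
Level (CPM, linear axes from 0) of each gene in the 6 microglia-like clusters, by library (circle control, square hCD33M, triangle hCD33m). Cluster 3 lies highest for all 6 genes, and the hCD33m triangle of P2ry13, Entpd1 and P2ry6 lies under the control circle in every cluster.

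The 6 genes differed in how their levels compared between cell types. In border associated macrophage-like cells P2rx4, P2rx7 and P2ry6 were at or above the level of pooled microglia-like cells. Each of these genes was lower there than in microglia-like cluster 3. P2ry13, Entpd1 and Adora3 were at a share of the pooled microglial level like that of the microglia markers. As RNA of microglia can reach other cells in a droplet library, each level was set beside those of the 10 microglia markers, which were at 62.0% to 79.7% of their microglial level in border associated macrophage-like cells and at 16.8% to 27.3% in cluster 11, all libraries pooled. In cluster 11 the hCD33M library stood apart, with markers at 33.5% to 45.0% against 9.04% to 20.2% in control and 8.26% to 17.7% in hCD33m, and without it the pooled markers were at 9.36% to 18.7%. Fcrls and Cx3cr1 were the highest markers in border associated macrophage-like cells, and Cx3cr1 in cluster 11 with libraries pooled.

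In border associated macrophage-like cells P2rx4 was at 172 CPM, or 141% (128 to 156) of its microglial level, with 145% in control, 151% in hCD33M and 135% in hCD33m. P2rx7 was at 147 CPM, or 120% (107 to 133), and P2ry6 at 438 CPM, or 101% (94.8 to 107). In microglia-like cluster 3 P2rx4 was at 199 CPM, P2rx7 at 198 and P2ry6 at 661. The highest level among the other microglia-like clusters was 137 CPM for P2rx4, 130 for P2rx7 and 443 for P2ry6. In the unnamed clusters 7 and 10, with medians of 5476.5 and 5557 UMIs per cell, P2rx4 was at 202 and 190 CPM. These P2rx4 levels were above that of border associated macrophage-like cells. P2rx7 was at 128 and 87.7 CPM in the same 2 clusters, and P2ry6 at 317 and 441 CPM. With libraries pooled these 3 genes had intervals above every microglia marker, also without the hCD33M library. In hCD33M alone P2rx7 was at 105% (82.9 to 130), an interval that reached below Fcrls at 83.8%. Entpd1 was at 396 CPM, or 71.5% (67.0 to 76.2), P2ry13 at 505 CPM, or 65.1% (61.5 to 68.9), and Adora3 at 86.4 CPM, or 58.6% (50.9 to 67.1), all of which overlapped the markers. For these last 3 genes, own transcripts and microglial RNA cannot be told apart in these cells. The thinned share of cells with Adora3 was 6.57% (13 of 198 cells), against 21.5% of microglia-like cells.

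In cluster 11, P2rx4 was at 71.3 CPM, or 58.5% (44.7 to 75.2) of its microglial level, at 60.4% in control, 57.2% in hCD33M and 58.1% in hCD33m. Its interval lay above every microglia marker, and without the hCD33M library it was at 59.1% (42.5 to 79.9) and did so too. P2ry6 was at 34.2% (28.5 to 40.7), above the markers in pooled libraries, but 67 of its 127 UMIs came from hCD33M. P2ry6 was at 24.2% in control, 52.9% in hCD33M and 24.9% in hCD33m, and without hCD33M its 24.5% (18.7 to 31.6) was no longer above Cx3cr1, the highest marker. P2rx7 at 30.4% (20.8 to 43.0), Entpd1 at 22.1% (18.1 to 26.8), P2ry13 at 19.0% (15.8 to 22.6) and Adora3 at 17.4% (10.9 to 26.4) overlapped the markers. P2ry13 was at 6.89% in control, 35.6% in hCD33M and 14.5% in hCD33m, and Entpd1 at 14.8%, 34.1% and 16.1%, so both were highest in the library with the highest markers. Of the 77 P2ry13 UMIs of hCD33M in cluster 11, 1 of 23 cells held 46.

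In cells picked for few microglia marker UMIs, under 50% of the share in microglia-like cells, the markers are low by construction, and the picking was set after the data were seen. In 100 such border associated macrophage-like cells P2rx4 was at 191% (158 to 228), P2rx7 at 143% (115 to 175) and P2ry6 at 87.4% (75.7 to 100.4) of the microglial level. Entpd1 was at 40.6% (33.6 to 48.5) and P2ry13 at 34.9% (29.4 to 41.1), beside 13.3% to 32.0% for the markers other than Fcrls, which was at 65.3%. Adora3 was at 6.41% (2.08 to 14.96), from 5 UMIs. In 79 such cells of cluster 11, P2rx4 was at 59.5% (44.4 to 78.1) and P2ry6 at 26.3% (20.9 to 32.7), beside markers at 4.72% to 14.7%. P2rx7 at 18.2% (10.4 to 29.5), Entpd1 at 9.56% (6.77 to 13.1), Adora3 at 9.46% (4.54 to 17.4) and P2ry13 at 7.56% (5.45 to 10.2) overlapped the markers.

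**Figure D4:**
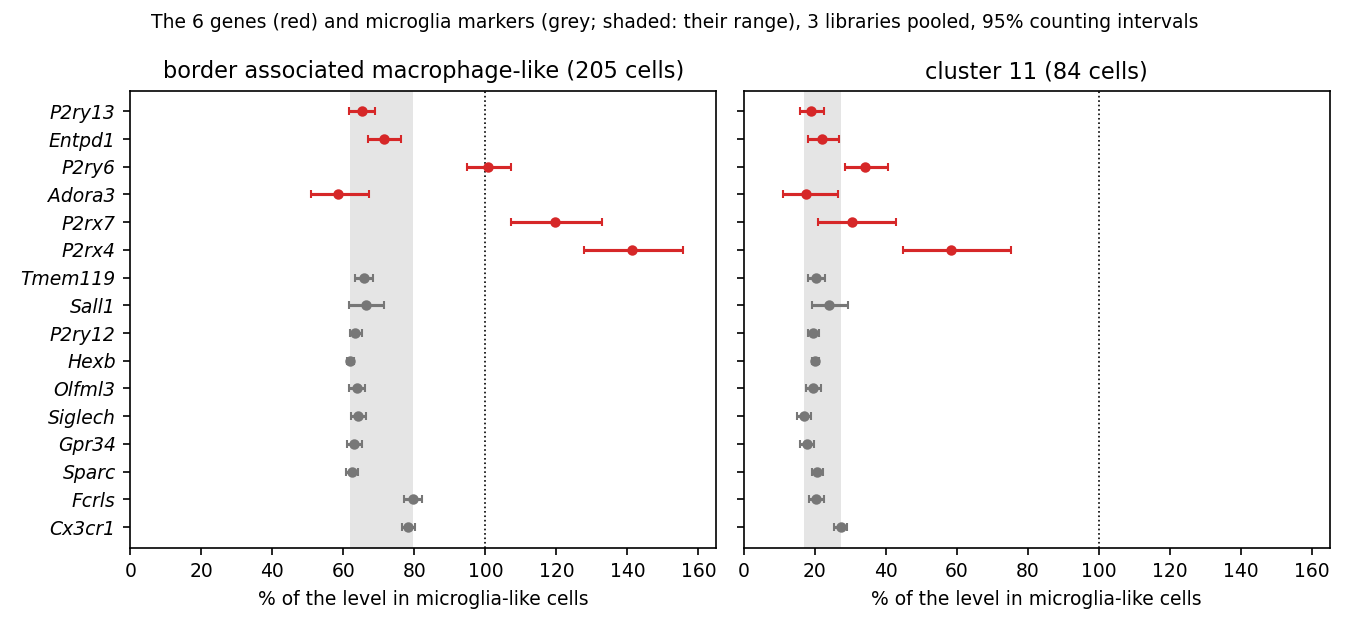
Level in 205 border associated macrophage-like cells and in the 84 cells of cluster 11 as a percent of that in microglia-like cells, for the 6 genes (red) and 10 microglia markers (grey, range shaded), 3 libraries pooled, with 95% counting intervals. P2rx4, P2rx7 and P2ry6 lie to the right of the shaded range in the left panel, and P2rx4 and P2ry6 in the right panel, where P2ry6 rests on the hCD33M library.

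The sequences before the start sites are shown for the receptor gene with the highest level, the enzyme gene with the largest difference, the adenosine receptor gene and the neighbouring P2X genes. They are from RefSeq on GRCm38.p6, 250 bases upstream of the annotated start, with GAGGAAG (or its complement CTTCCTC), a core found in sites of the myeloid factor PU.1, in capitals. The table held entries for 5 of the 6 genes, and none for P2ry6. The windows are chr3:59210883-59211132, minus strand (P2ry13), chr19:40612116-40612365, plus strand (upstream Entpd1 start), chr19:40659520-40659769, plus strand (downstream Entpd1 start), chr3:105904171-105904420, plus strand (Adora3), chr5:122643677-122643926, plus strand (P2rx7, from the upstream of its annotated starts) and chr5:122707294-122707543, plus strand (P2rx4). The motif was chosen with the levels known, so its matches support nothing about them. It stands 41 bases before the start of P2ry13, 220 before the downstream but not the upstream start of Entpd1, and 22 before that of Adora3, and not in the P2X windows. It is in 10.6% of 32851 promoter windows of this length. The AP-1 motif TGANTCA, in 6.75% of windows, was found in those of Adora3 and P2rx7 and not in the other windows shown. The downstream P2rx7 window, not shown, held neither motif. The GC content ran from 41.6% in P2ry13 to 62.4% in the upstream window of Entpd1 among the windows shown. A match describes these letters only, and 3′ tags do not show which start was used.
P2ry13: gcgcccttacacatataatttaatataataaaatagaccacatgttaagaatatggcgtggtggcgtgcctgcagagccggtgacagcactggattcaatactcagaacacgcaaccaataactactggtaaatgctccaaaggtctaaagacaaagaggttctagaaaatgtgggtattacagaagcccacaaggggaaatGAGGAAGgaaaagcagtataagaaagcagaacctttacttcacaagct
Upstream Entpd1: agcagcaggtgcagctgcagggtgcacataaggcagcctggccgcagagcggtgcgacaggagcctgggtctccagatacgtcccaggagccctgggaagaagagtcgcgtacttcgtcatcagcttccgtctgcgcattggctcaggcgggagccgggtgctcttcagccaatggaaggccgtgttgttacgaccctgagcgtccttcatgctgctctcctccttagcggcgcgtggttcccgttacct
Downstream Entpd1: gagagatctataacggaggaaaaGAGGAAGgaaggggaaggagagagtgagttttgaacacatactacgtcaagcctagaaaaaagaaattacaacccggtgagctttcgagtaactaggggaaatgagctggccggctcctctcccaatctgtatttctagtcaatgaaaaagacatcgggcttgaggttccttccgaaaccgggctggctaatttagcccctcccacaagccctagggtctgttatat
Adora3: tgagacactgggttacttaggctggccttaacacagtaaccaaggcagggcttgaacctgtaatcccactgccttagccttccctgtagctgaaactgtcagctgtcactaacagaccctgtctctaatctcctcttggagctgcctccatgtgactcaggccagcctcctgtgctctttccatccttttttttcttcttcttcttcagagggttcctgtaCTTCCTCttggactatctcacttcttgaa
P2rx7: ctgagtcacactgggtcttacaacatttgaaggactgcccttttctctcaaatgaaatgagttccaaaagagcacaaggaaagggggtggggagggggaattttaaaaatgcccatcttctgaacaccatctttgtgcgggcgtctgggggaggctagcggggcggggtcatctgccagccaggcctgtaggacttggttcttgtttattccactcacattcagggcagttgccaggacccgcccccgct
P2rx4: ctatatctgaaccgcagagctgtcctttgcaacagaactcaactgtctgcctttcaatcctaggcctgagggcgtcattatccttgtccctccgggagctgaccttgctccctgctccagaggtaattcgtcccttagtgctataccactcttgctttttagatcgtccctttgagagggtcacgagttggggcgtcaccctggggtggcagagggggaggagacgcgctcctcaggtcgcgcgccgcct

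The genes whose levels across all 12 clusters ran most like those of each gene were found by Pearson's r of log2(CPM + 10) over 5408 genes, with libraries pooled, as a description with no p. For P2ry13 these were Adgrg1 (0.994), which encodes the adhesion receptor GPR56, Tmem173 (0.989), which encodes STING, and Vsir (0.987). For Entpd1 they were Pla2g15 (0.985), Btg2 (0.982) and Adora3 (0.982), and for Adora3 they were Lpcat2 (0.982), Entpd1 (0.982) and Havcr2 (0.979). Those of P2ry6 included Tbxas1 (0.952) and Ufl1 (0.952). P2rx4 ran with Colgalt1 (0.928), Srpk2 (0.927) and Slc6a6 (0.921), and P2rx7 with Adam15 (0.965), Slc38a7 (0.964) and 2810405F17Rik (0.958). The clusters share libraries and differ in depth.

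Of 52 other purinergic genes listed, 41 were in the libraries and 17 passed 20 CPM in microglia-like cells. None of the 17 was called in any of the 3 comparisons at 1.5-fold. Of the other receptors only P2ry10b was measured, at 52.7 CPM in control, 46.1 in hCD33M and 40.3 in hCD33m, with a log2 ratio of -0.39 (-0.50 to -0.28) in hCD33m against control. P2rx1 was at 7.54 CPM over all libraries, Adora1 at 0.835, and P2ry1, Adora2a and Adora2b had no UMI in microglia-like cells, where genes found in few cells of a library had been removed before deposit.

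The transcript of the enzyme that follows CD39 in the adenosine path was scarce in microglia-like cells. Nt5e, which encodes CD73, was at 0.184 CPM, against 554 for Entpd1. Protein and enzyme activity were not measured. The other measured hydrolases were Cant1 at 50.9 CPM, Entpd7 at 28.1, Entpd6 at 27.6 and Enpp4 at 20.5. Slc29a3, a nucleoside transporter of lysosomes, was at 448 CPM in control, 467 in hCD33M and 417 in hCD33m, and Pnp, a purine nucleoside phosphorylase, at 380, 373 and 370 in that order. Slc29a1, the plasma membrane transporter ENT1, was at 98.0, 92.9 and 79.9 CPM. For nucleotide release, Lrrc8a, a volume-regulated anion channel subunit, was at 45.1, 46.9 and 48.1 CPM and Panx1, the ATP channel pannexin, at 6.51 CPM over all libraries.

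Of the partners of P2rx7 in inflammasome activation that passed 20 CPM, Nlrp3 differed most between libraries. Pycard, the adaptor ASC, was at 469, 461 and 480 CPM, Nek7 at 169, 167 and 180, and the potassium channel genes Kcnk6 at 130, 127 and 121 and Kcnk13 at 83.1, 79.2 and 85.5. Nlrp3, the sensor gene, which was named after its values were seen, was at 78.6 CPM in control, 74.4 in hCD33M and 56.0 in hCD33m, a log2 ratio of -0.49 (-0.58 to -0.40) in hCD33m against control and -0.41 (-0.50 to -0.32) in hCD33m against hCD33M. With the lower limit of 0.32, Nlrp3 and P2ry10b were lower in hCD33m than in control, where 2.65% of all measured genes were, and Nlrp3 was lower in hCD33m than in hCD33M, where 1.67% were. Il1b, the inflammasome's cytokine substrate, was at 2.31 CPM over all libraries, under the minimum for a call. It was at 1.53 CPM in control, 2.60 in hCD33M and 2.71 in hCD33m, from 43, 77 and 93 UMIs. Its log2 ratio against control was 0.83 (0.29 to 1.38) in hCD33m and 0.77 (0.21 to 1.34) in hCD33M.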

How the data were processed

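Single-cell RNA sequencing of sorted mouse microglia was used, with 1 library per genotype on 10x Chromium 3′ chemistry. The authors aligned reads to mm10 with Cell Ranger and deposited raw UMI counts per gene and cell after import into Seurat, and the annotation release is not given in the sources used here. The values were whole numbers with totals that differed between cells. The genes and gene lists were chosen with earlier results of these data known.

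Cells with more than 200 and at most 8000 genes and at most 10% mitochondrial UMIs were kept, and no doublet caller was run. They were clustered in scanpy 1.11.5 with leidenalg 0.10.2, 2000 variable genes without the purinergic, immediate early, sex-linked and mitochondrial genes, 15 principal components, 20 neighbours and a Leiden resolution of 0.8. A cluster was named from at least 3 markers at 50% or more of their highest cluster level, and kept no name where a median depth under 1 in 3 of the library's or its 10 leading genes went against it. By this rule cluster 11 was monocyte-like. As its first leading genes, S100a9, S100a8, Camp and Ngp, were those of neutrophils while all 8 monocyte markers passed, it is called by number here instead. UMIs were summed per library over microglia-like cells and scaled to CPM, and ratios were called at 1.5-fold. Intervals at 95% are exact Poisson (levels), conditional binomial (ratios) and Clopper-Pearson (shares), and cover counting error only. No p is given.

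Named genes were the 6 genes, up to 4 per list of other purinergic genes by pooled CPM among those with at least 20 CPM in 1 library, any called, and the 3 genes most like each, of which 1 is not reported here. Nlrp3 and genes under 20 CPM were named after their values were seen. The procedure was run on simulated counts of hCD33m against control, drawn with Poisson error only and no difference between mice or runs. There 0 of 6429 unchanged genes and 0 of 50 genes changed by 0.32 on the log2 scale were called. All 50 changed 2-fold and all 50 changed 4-fold were called. This checks how the call works on counting error and gives no rate of false calls between real libraries. There were 22 alternatives, among them TMM factors from edgeR 4.0.16, and 2 were added after the data were seen. Figures were drawn with matplotlib 3.10.9.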

Additional observations from a re-analysis of the deposited data

Results flagged for a closer look

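Entpd1 and P2ry6 lay on opposite sides of control in the transgenic libraries. On the log2 scale Entpd1 was at -0.17 in hCD33m and 0.19 in hCD33M, and P2ry6 at -0.12 in hCD33m and 0.10 in hCD33M, each with an interval that leaves out no difference. The libraries share 1 control library and each genotype is 1 sample, so the difference was not tested.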

How the results depend on the processing

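With 1 library per genotype, no library could be left out and no spread between mice was measured. No paired analysis was possible because each group is 1 sample. At 1.5-fold no gene of the 6 was called under any of the 12 other choices of cells, scaling, clustering and depth, and 0 were called at 2-fold. At a lower limit of 0.32 on the log2 scale 1 gene, Entpd1, was called in hCD33m against hCD33M, and 2 other purinergic genes were called in hCD33m against control and 1 in hCD33m against hCD33M. Of the 18 log2 ratios of single genes, 12 kept their sign under all 12 choices, among them every ratio of P2ry13, P2ry6 and Entpd1. Entpd1 in hCD33m against hCD33M ranged from -0.43 (mean CPM of cells) to -0.318 (same cluster weights). The latter fell just short of the lower limit, which is 0.3219 before rounding. Calls at that limit were made with the main choice only. P2ry13 in hCD33m against control ranged from -0.32 (cells with no early gene UMI) to -0.20 (Leiden resolution 0.4). Ratios of P2rx4 changed sign in all 3 comparisons, between -0.12 and 0.05. Thinned to 1000 UMIs, 6 of the 6 genes had a lower share in hCD33m than in control, as in the text, and thinned to 3000 UMIs 4 did. At that depth Adora3 (33.9% against 32.9%) and P2rx4 (28.9% against 26.9%) had a higher share in hCD33m than in control. Under both other Leiden resolutions 3 genes lay above every microglia marker in border associated macrophage-like cells and 2 in cluster 11, as in the text. Without the hCD33M library 1 did in cluster 11, P2rx4, as P2ry6 was lost. In the order of levels, 4 of the 6 genes kept their place with all cells kept in control and hCD33M and with the mean CPM of cells in control, and all 6 did otherwise. Depth limits P2rx7, P2rx4 and Adora3 most, since fewest thinned cells held them.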

Other observations

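Clusters that stayed unnamed also held the 6 genes. In cluster 5, led by Gm42418, Gm26917 and AY036118 with a median of 720 UMIs per cell, P2ry13 was at 253 CPM and Adora3 at 92.5 CPM while P2rx4 was at 276 CPM, with counting intervals of P2ry13 (224 to 285) and P2rx4 (245 to 309) that overlapped. In cluster 7, led by hemoglobin genes, Cst7 and Vcam1 (500 cells), P2rx4 was at 202 CPM and P2ry6 at 317 CPM. In cluster 10, led by Ccl4 and Ccl3 (120 cells, 82 of them from hCD33m), P2ry13 was at 399 CPM, Entpd1 at 451 CPM and P2rx4 at 190 CPM.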
